A study of Mus musculus with 64 samples.

Results

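Transcripts of 8 T cell genes were examined in the whole blood of chronically stressed and unstressed mice. The genes were chosen by symbol, as the chains of the T cell receptor complex (Cd3d, Cd3e, Cd3g and Cd247), the coreceptors Cd4 and Cd8a, the kinase Lck and the interleukin-7 receptor chain Il7r. All 8 were present among the 8830 genes of the blood table, out of 17199 genes in the 4 tissue tables of the series, and none was missing. The animals were male BALB/c mice aged 28 weeks. Those of the UCMS group had gone through 9 weeks of Unpredictable Chronic Mild Stress, a mouse model of depression, and control animals had stayed unstressed. The last stress had ended 14 to 16 hours before trunk blood was collected, at ZT12.5 to ZT14.5 of the light cycle. No genetic change or drug is named for either group. Blood came from 7 control and 9 UCMS animals, with 1 library for each animal, and 2 of the UCMS animals carry numbers that start with BS where the others start with S. Values were read as normalized log2 levels whose ranks, in most of the table, hold the same value in every library. The sequencing depth is unknown, and levels of different genes cannot be compared as transcript numbers.

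T cells recognise antigen through a receptor whose variable chains have almost no signalling tail of their own. The signal is carried by the invariant CD3 gamma, delta and epsilon chains and by the zeta chain, which Cd247 encodes. Lck, bound to the tails of CD4 or CD8, phosphorylates these chains when the receptor is engaged, and interleukin-7 receptor signalling keeps resting T cells alive. In whole blood, T cells are a minority among red cells, platelets and other leukocytes, so each level here reflects how large a share of blood RNA came from T cells as well as how much of the transcript each T cell held. Fewer T cells and less RNA in each T cell cannot be told apart in these samples.

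Further T cell transcripts were present in the same libraries. For Trac, the constant region of the receptor alpha chain, the control mean was 5.06 ± 0.43 (SD, n = 7) and the UCMS mean 4.87 ± 0.26 (SD, n = 9). Of 56 further T cell genes in a list made for this comparison, 51 were in the table, and Gata3, Sh2d1a, Foxp3, Ctla4 and Il2ra were not analysed here. The lowest value of the blood table was 0.0350, so no gene could stand at 0, and a level above 0 does not by itself show expression.

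Genes of the CD3 locus lie close together on mouse chromosome 9. Cd3g (Entrez 12502, GRCm38 chromosome 9, 44969572 to 44980431, minus strand) and Cd3d (Entrez 12500, chromosome 9, 44981786 to 44987339, plus strand) are read away from each other from starts 1355 bases apart. Cd3e (Entrez 12501, chromosome 9, 44998740 to 45009627, minus strand) lies beyond Cd3d and ends 11401 bases from the end of Cd3d. Cd247 (Entrez 12503, chromosome 1, 165788681 to 165877277, plus strand) lies elsewhere and overlaps Pou2f1 on the opposite strand, whose row is also in the blood table. The use of strand in counting is not given in the sources used here, so reads of Cd247 and Pou2f1 may not have been kept apart. The start regions of these 4 chains are shown because the co-variation of their pairs, with that of the neighbours Cd3g and Cd3d among them, is given below. They are RefSeq windows of 300 bases on GRCm38.p6, from 250 bases before to 50 bases after the start, written 5′ to 3′ on the gene's own strand. The windows are chr9:44980382-44980681 for Cd3g (minus strand), chr9:44981536-44981835 for Cd3d (plus strand), chr9:45009562-45009861 for Cd3e (minus strand) and chr1:165788431-165788730 for Cd247 (plus strand). Capitals mark CAGGAAGT or its reverse complement ACTTCCTG, a form of the site bound by ETS transcription factors, which are known for their part in lymphocyte gene expression.
Cd3g: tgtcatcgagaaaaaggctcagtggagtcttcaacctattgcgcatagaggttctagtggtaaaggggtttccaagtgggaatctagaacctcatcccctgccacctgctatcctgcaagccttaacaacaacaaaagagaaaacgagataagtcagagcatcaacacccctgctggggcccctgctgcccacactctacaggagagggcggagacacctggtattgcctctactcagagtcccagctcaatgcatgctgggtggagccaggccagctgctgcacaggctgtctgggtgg
Cd3d: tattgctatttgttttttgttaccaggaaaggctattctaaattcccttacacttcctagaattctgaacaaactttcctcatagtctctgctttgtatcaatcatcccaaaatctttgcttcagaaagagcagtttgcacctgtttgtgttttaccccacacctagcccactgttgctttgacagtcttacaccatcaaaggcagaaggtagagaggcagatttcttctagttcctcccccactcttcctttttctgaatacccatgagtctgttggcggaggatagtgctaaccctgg
Cd3e: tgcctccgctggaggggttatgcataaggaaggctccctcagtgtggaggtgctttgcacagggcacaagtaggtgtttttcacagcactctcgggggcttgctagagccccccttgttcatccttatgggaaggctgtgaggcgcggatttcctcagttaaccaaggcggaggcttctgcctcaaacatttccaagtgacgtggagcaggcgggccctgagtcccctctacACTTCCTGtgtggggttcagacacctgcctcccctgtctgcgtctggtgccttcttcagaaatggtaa
Cd247: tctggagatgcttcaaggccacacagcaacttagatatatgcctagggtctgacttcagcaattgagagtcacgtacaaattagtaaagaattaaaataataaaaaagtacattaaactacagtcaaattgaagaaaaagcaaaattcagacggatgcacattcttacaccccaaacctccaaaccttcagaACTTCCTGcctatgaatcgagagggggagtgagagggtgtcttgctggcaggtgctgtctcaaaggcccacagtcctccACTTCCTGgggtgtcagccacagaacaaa

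Windows were given for 7 of the 8 genes, with 2 for Lck, and not for Cd4. The ETS letters stood in those of Cd3e, Cd247, Lck and Il7r, that is in 5 of 8 windows, and in 3.33% of all 32851 windows of the table. Cd3g, Cd3d and Cd8a had no match on either strand. The E box letters CACCTG or CAGGTG, searched in the same way, stood in 6 of the 8 windows and in 20.2% of all windows. Both motifs were chosen after the windows had been read, they share the letters CAGG, and a match describes the sequence only.

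The comparison of UCMS with control asked whether chronic stress left T cell transcripts in blood higher or lower. None of the 8 genes passed the test for a difference. Mean levels were lower in UCMS for 7 of them and higher for Il7r, with a median log2 difference (UCMS minus control) of -0.0991, against a median of -0.0104 over all 7947 genes tested. With 1 library left out, 6 or 7 of the 8 were lower and their median ran from -0.0162 without control replicate 2 to -0.21 without control replicate 6. Limma with Benjamini-Hochberg adjustment over all genes called 0 of the 8 at an adjusted p under 0.05, where it called 0% of all genes, and 0 of the 8 at an unadjusted p under 0.05, where it called 10.8% of all genes (4.33% lower and 6.48% higher in UCMS). A lower mean in UCMS was found in 51.4% of all genes tested. The control and UCMS libraries overlapped for each of the 8 genes, and did not overlap for 0.0252% of all genes. Over all genes tested, the standard error of the difference had a median of 0.195.

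The means of all 4 chains of the receptor complex were lower in UCMS, and the 95% interval of each difference included 0. Cd3d, the CD3 delta chain, ran from 3.57 through a median of 3.63 to 4.11 in the 7 controls, and from 3.0 through 3.84 to 4.14 in the 9 UCMS animals. The UCMS range held the control range, and UCMS replicates 3 and 8 lay below all controls. Only these 2 of the 9 lay below the control median, so the UCMS median was higher while the UCMS mean was lower. The control mean was 3.76 ± 0.21 (SD, n = 7) and the UCMS mean 3.73 ± 0.38 (SD, n = 9), a log2 difference of -0.0300 with a standard error of 0.17 and a 95% interval from -0.37 to 0.31. Cd3e, the CD3 epsilon chain that pairs with both other CD3 chains, ran from 3.58 through 4.04 to 4.46 in controls and from 3.7 through 3.84 to 4.21 in UCMS. The UCMS animals lay inside the control range, and 7 of the 9 were below the control median. The Cd3e difference was -0.0640 (standard error 0.15, 95% interval -0.37 to 0.24).

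Cd3g, the CD3 gamma chain, ran from 3.12 through 3.81 to 4.04 in controls and from 3.09 through 3.50 to 4.07 in UCMS. Its difference of -0.17 (standard error 0.17, 95% interval -0.53 to 0.18) was as large as its standard error, and 7 of 9 UCMS animals lay below the control median. Cd247, the zeta chain, which natural killer cells also use, ran from 2.91 through 3.92 to 4.46 in controls and from 3.03 through 3.78 to 4.37 in UCMS. The Cd247 groups covered nearly the same range, with a difference of -0.0671 (standard error 0.21, 95% interval -0.50 to 0.36). Here too 7 of 9 UCMS animals lay below the control median. The adjusted p of limma was 0.958 for Cd3d, 0.885 for Cd3e, 0.687 for Cd3g and 0.921 for Cd247.

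**Figure D1:**
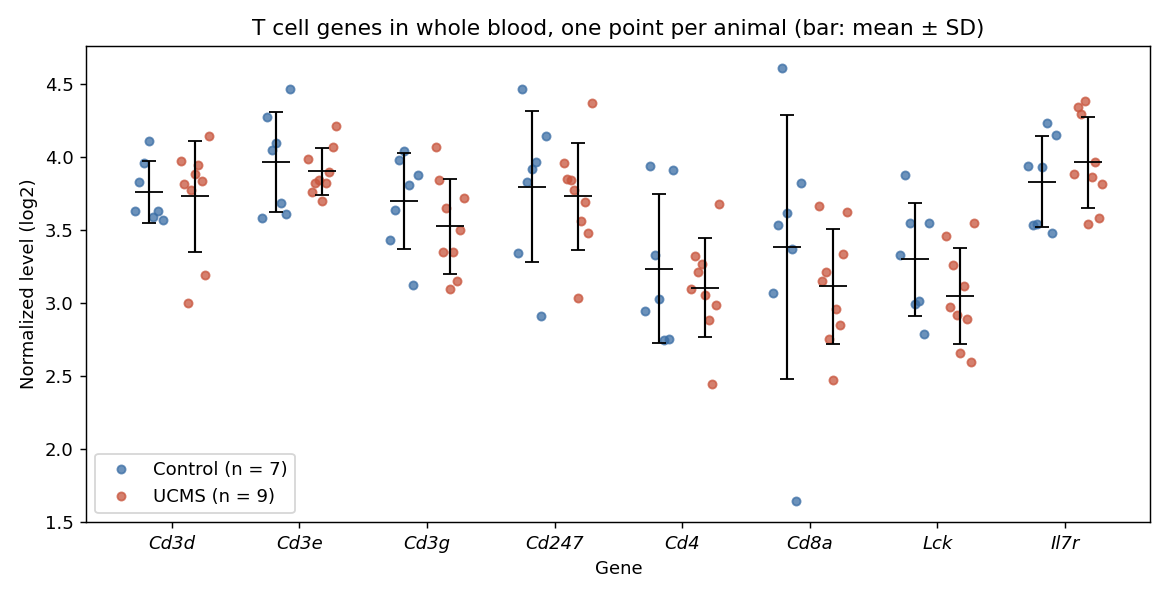
Normalized log2 level (vertical axis) of each of the 8 T cell genes in whole blood, with 1 point for each of 7 control and 9 UCMS animals and bars for the mean ± SD. The groups overlap for every gene, and Cd8a in controls has the widest spread, from 1.65 to 4.61.

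Cd8a and Lck had the largest differences of the 8 genes, and neither passed. Cd4 (Entrez 12504, chromosome 6, 124864692 to 124888221), which marks helper T cells, ran from 2.75 through 3.02 to 3.94 in controls and from 2.44 through 3.10 to 3.68 in UCMS. Only 3 of 9 UCMS animals lay below the control median, so the UCMS median was higher while the UCMS mean was lower. Control replicates 2 and 7 and UCMS replicate 9 stood above all other animals, and the difference was -0.13 (standard error 0.20, 95% interval -0.56 to 0.30). It was -0.0141 without control replicate 2 and -0.0189 without control replicate 7. Cd8a (Entrez 12525, chromosome 6, 71373427 to 71379173), a chain of the coreceptor of cytotoxic T cells, ran from 1.65 through 3.53 to 4.61 in controls and from 2.48 through 3.15 to 3.66 in UCMS. The lowest and the highest of all 16 animals were both controls, replicates 6 and 3, and 7 of 9 UCMS animals lay below the control median. In control replicate 6 Cd8a stood at percentile 2.51 of the genes of that library, near the bottom of its values. The Cd8a difference was -0.27 with a standard error of 0.29 and a 95% interval from -0.88 to 0.34. With 1 library left out it ran from -0.0625 (unadjusted p of limma 0.822) without control replicate 3, the highest animal, to -0.56 (unadjusted p of limma 0.0212, adjusted 0.408) without control replicate 6, the lowest.

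Lck (Entrez 16818, chromosome 4, 129548344 to 129573641) ran from 2.79 through 3.33 to 3.87 in controls and from 2.60 through 2.97 to 3.54 in UCMS. The UCMS animals were lower as a group, 7 of 9 of them below the control median, while both groups shared most of their range. The control mean was 3.30 ± 0.39 (SD, n = 7) and the UCMS mean 3.05 ± 0.33 (SD, n = 9), which is a level 0.839 times that of controls with a 95% interval from 0.645 to 1.09 times. Lck had the smallest p of the 8 genes, an adjusted p of 0.595 by limma, at rank 2417 among the 7947 genes. Il7r (Entrez 16197, chromosome 15, 9505788 to 9530176), carried by resting T cells and also by other lymphoid cells, ran from 3.48 through 3.93 to 4.23 in controls and from 3.54 through 3.88 to 4.38 in UCMS. It was the only one of the 8 with a higher mean in UCMS, by 0.13 (standard error 0.16, 95% interval -0.21 to 0.47), and its UCMS median lay below that of controls. Of the UCMS animals, 5 of 9 lay below the control median. The adjusted p of limma was 0.820 for Cd4, 0.730 for Cd8a and 0.763 for Il7r.

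The balance of the coreceptors was taken as the log2 level of Cd4 minus that of Cd8a in the same library. It ran from -1.28 through -0.12 to 1.10 in controls and from -0.56 through 0.0030 to 0.57 in UCMS. Both ends were control animals, replicate 3 at the bottom and replicate 6 at the top. The UCMS mean was higher by 0.14, from a control mean of -0.15 ± 0.78 (SD, n = 7) to a UCMS mean of -0.0094 ± 0.39 (SD, n = 9), and the two-sided exact permutation p was 0.656 over 11440 splits of the animals. Without control replicate 3 the difference turned to -0.0526.

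The 49 further T cell genes that were tested lay mostly lower in UCMS and none passed the test. Of these, 41 had a lower and 8 a higher mean in UCMS, with a median log2 difference of -0.12 against -0.0104 over all genes, and limma called 0 over all genes. With limma's array weights 35 were lower, with a median of -0.0478. Without control replicate 2 there were 33 lower (median -0.0709), without control replicate 7 there were 34 (median -0.0656), and without control replicate 6 there were 45 (median -0.22). The list was made with earlier results of these data known. At an unadjusted p under 0.05 there were 2, both lower, where 4.33% of all genes tested were lower at that p. Satb1, a chromatin organiser of developing T cells, had a control mean of 3.92 ± 0.43 (SD, n = 7) and a UCMS mean of 3.55 ± 0.18 (SD, n = 9). Fyb, an adaptor of T cell adhesion, had 3.76 ± 0.26 and 3.45 ± 0.21, and the adjusted p of limma was 0.458 for both. The next by unadjusted p were the receptor adaptors Lat and Lcp2, the inhibitory Ubash3a and the kinase Fyn, with log2 differences of -0.32, -0.29, -0.48 and -0.24. Which blood cells the transcripts of these 6 genes came from was not tested. In the same libraries platelet genes were lower in UCMS for 13 of 13, with a median log2 difference of -0.47. Cd8b1, the partner chain of Cd8a, had means of 3.48 ± 0.51 and 3.28 ± 0.34. The number at an unadjusted p under 0.05 ran from 0 to 6 with 1 library left out, and 6 came without control replicate 6.

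Genes of other blood cells were measured in the same libraries, and their part in the T cell values was not tested. Mean levels were lower in UCMS for 12 of 15 B cell genes (median log2 difference -0.13), 11 of 11 neutrophil genes (-0.15), 8 of 9 monocyte genes (-0.27), 8 of 8 general leukocyte genes (-0.23) and 13 of 13 platelet genes (-0.47). Red cell genes were higher for 12 of 13 (median 0.27), with Hba-a1 equal in all libraries. Natural killer cell genes were lower for 4 of 7 (median -0.0649). Limma called 0 members of these lists over all genes. At an unadjusted p under 0.05, 9 of 13 platelet genes, 2 of 8 leukocyte genes and 1 of 9 monocyte genes were lower, where 4.33% of all genes were, and 3 of 13 red cell genes were higher, where 6.48% of all genes were. The B cell, neutrophil and natural killer cell lists had 0 at that p. The sum of the log2 levels of the 8 genes, which is not a total amount of RNA, ran from 23.9 to 31.5 in controls and from 25.4 to 31.1 in UCMS. The same sum ran from 44.4 to 64.9 and from 42.0 to 70.4 for the 16 B cell genes, from 43.8 to 60.3 and from 43.1 to 58.4 for the 12 neutrophil genes, and from 35.3 to 48.1 and from 33.0 to 41.6 for the 11 monocyte genes. It ran from 87.6 to 96.0 in controls and from 73.0 to 92.7 in UCMS for the 13 platelet genes, from 114.2 to 126.5 and from 119.1 to 128.8 for the 13 red cell genes, from 39.6 to 43.7 and from 36.6 to 42.1 for the 8 leukocyte genes, and from 24.9 to 31.1 and from 24.3 to 32.2 for the 9 natural killer cell genes. The best expressed genes of these lists were Ighm and Ighd for B cells, Klrk1 and Ccl5 for natural killer cells, S100a8 and S100a9 for neutrophils, Lyz2 and Ccr2 for monocytes, Pf4 and Nrgn for platelets, Arhgdib and Cd52 for leukocytes, and Hba-a1 and Hba-a2 for red cells. Pf4, platelet factor 4, had a control mean of 9.63 ± 0.26 (SD, n = 7) and a UCMS mean of 9.13 ± 0.52 (SD, n = 9).

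**Figure D2:**
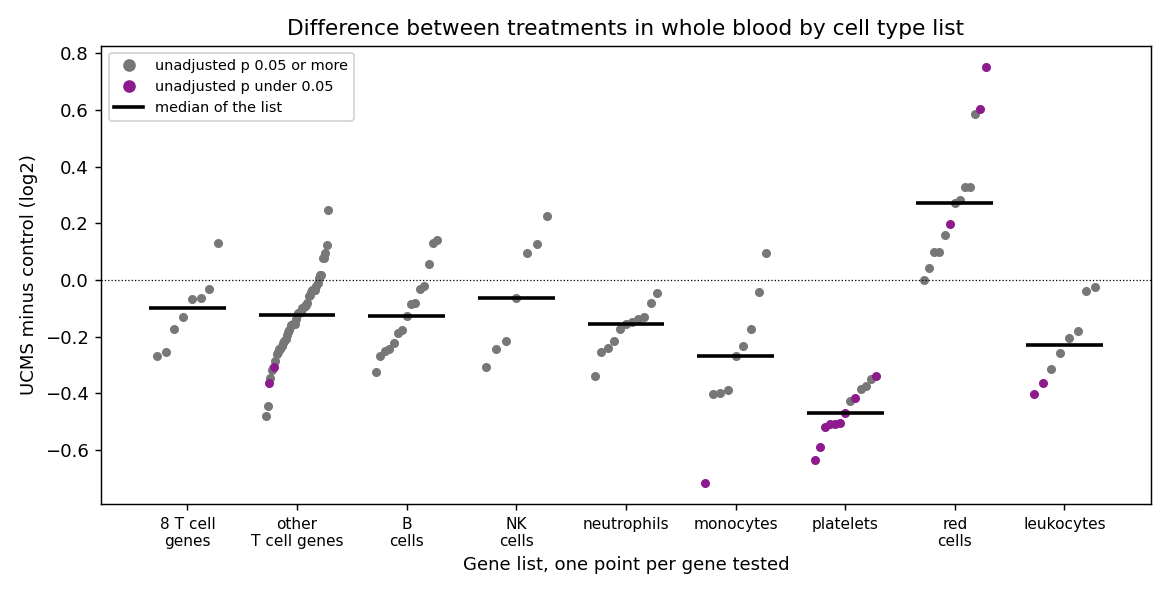
Difference in mean log2 level between UCMS and control blood (vertical axis) for the genes of each cell type list, with 1 point for each gene tested, purple where the unadjusted p of limma was under 0.05, and a black line at the list's median. The medians were -0.0991 for the 8 T cell genes, -0.12 for the other T cell genes, -0.47 for platelet genes and 0.27 for red cell genes.

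Relative to Ptprc, the CD45 phosphatase found on all leukocytes, the median difference of the 8 genes was -0.0741 and 7 of them were lower in UCMS. Ptprc itself had a control mean of 4.46 ± 0.31 (SD, n = 7) and a UCMS mean of 4.44 ± 0.24 (SD, n = 9). Its log2 difference of -0.0250 was the smallest of the 8 general leukocyte genes. Those were all lower in UCMS, by up to -0.40 with a median of -0.23. No other leukocyte gene was used as a reference, so the direction relative to leukocytes in general was not tested. With libraries weighted by limma's array weights, 3 of the 8 were lower in UCMS and the median was 0.0171, so the shared direction depended on the weights given to single animals. Without the 2 animals whose numbers start with BS, 7 of the 8 were lower, the median was -0.16 and 0 passed; these animals are all UCMS, so no comparison within them was possible.

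For each of the 8 genes, animals of the same group differed by more than the group means did. The mean level of the 8 genes was lowest in control replicate 6, at 2.99, and in UCMS replicate 5, at 3.18. It was highest in control replicate 7 at 3.93, UCMS replicate 9 at 3.89 and control replicate 2 at 3.88, so both ends held animals of both groups. Neutrophil genes had their highest mean level, 5.03, in control replicate 6, and stood at 4.86 in UCMS replicate 5, but they also stood at 4.93 in control replicate 7. Within groups, the SD of Cd8a was 0.66, above that of 94.6% of the 500 genes nearest to it in mean level, whose median SD was 0.40. Cd3e had a within-group SD of 0.26, above that of 15.2% of its 500 neighbours in level, and Cd3d had 0.32, above 28.4% of its own. The other 5 genes lay between 30.2% and 67.4%.

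Many of the T cell genes co-varied from animal to animal. Of the 28 pairs of the 8 genes, 10 had a correlation past the threshold over the 16 animals, by a two-sided permutation test with 100000 resamples and Benjamini-Hochberg adjustment over the 28 pairs, and all 10 were positive. The lowest of the 10 had a Pearson r of 0.640, and 2.63% of all 31549596 pairs of genes tested in blood reached that value. The r was above 0 for 25 of the 28 pairs, and for 49.0% of all pairs of genes. All 10 lay among 6 genes, Cd3e, Cd3g, Cd247, Cd4, Cd8a and Lck, whose 15 pairs had an r between 0.449 and 0.779 with a median of 0.664. These 6 were picked out after the values were seen.

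Cd3g and Cd8a formed the strongest pair. Their r was 0.779 and their Spearman rho 0.826 over 16 animals, with permutation p = 0.00011 (adjusted 0.00308) and p = 0.00012 (adjusted 0.00336), and r was 0.677 without the 2 animals farthest from the median of Cd3g. Control replicate 6 and UCMS replicate 5 were the 2 lowest animals in both genes, and control replicates 3 and 4 and UCMS replicate 1 were high in both. Cd247 and Lck, the zeta chain and the kinase that phosphorylates it, had r = 0.731 and rho = 0.688 (adjusted permutation p = 0.0102 and 0.0219). Cd3e and Cd247 had r = 0.728 and rho = 0.641 (0.0102 and 0.0367). Control replicates 2 and 7 and UCMS replicate 9 were high in Cd3e, Cd247 and Lck.

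The other 7 pairs were Cd3e with Cd4 and with Cd8a (r = 0.725 and 0.646, rho = 0.618 and 0.691), Cd4 with Lck (0.708 and 0.626), Cd247 with Cd8a, Cd3g and Cd4 (r = 0.708, 0.669 and 0.664, rho = 0.747, 0.682 and 0.606), and Cd8a with Lck (0.640 and 0.738). Their adjusted permutation p ran from 0.0102 to 0.0181 for r and from 0.0145 to 0.0406 for rho. When the 2 animals farthest from the median of the first gene were left out, the relation no longer held at an unadjusted permutation p under 0.05 for 4 of the 10 pairs. These were Cd3e with Cd4 (r = 0.469, p = 0.0903), Cd4 with Lck (0.511, p = 0.0619), Cd247 with Cd8a (0.409, p = 0.145) and Cd3g with Cd247 (0.437, p = 0.119). Leaving out extreme animals narrows the range and lowers the number of animals, and the choice depends on which gene is named first. These 4 pairs were therefore not shown to hold without those animals, nor shown to rest on them alone. The animals left out were control replicates 2 and 7 for the pairs named by Cd3e or Cd4, and control replicate 6 and UCMS replicate 5 for the others.

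**Figure D3:**
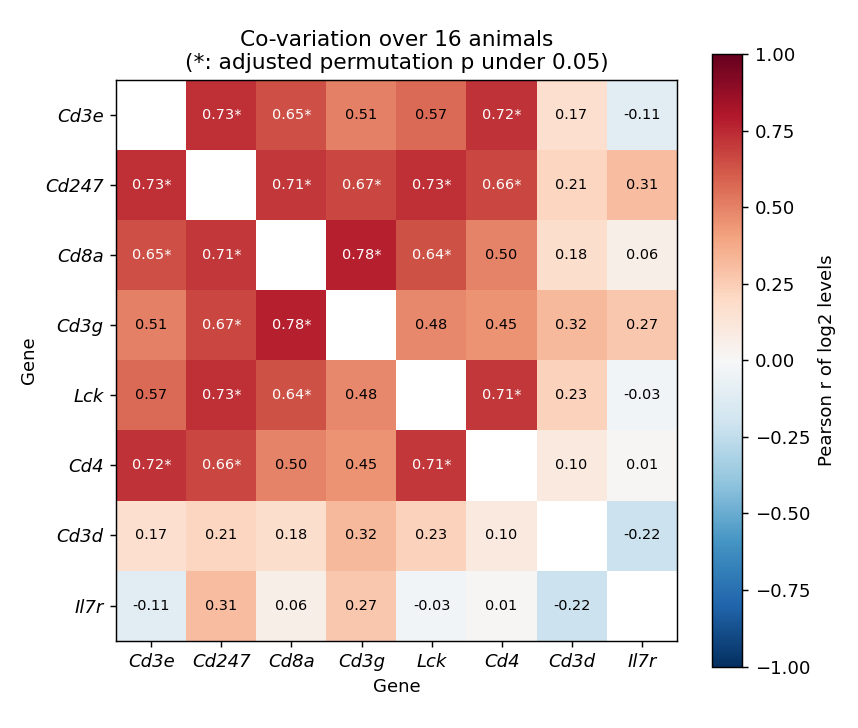
Pearson r of log2 levels for each pair of the 8 T cell genes over 16 animals, on a colour scale from -1 to 1, with a star where the adjusted permutation p was under 0.05. The 10 starred pairs lie among Cd3e, Cd247, Cd8a, Cd3g, Lck and Cd4, and none involves Cd3d or Il7r.

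None of the pairs with Cd3d or Il7r passed. The 7 pairs of Cd3d had an r between -0.217 and 0.324 and the 7 pairs of Il7r between -0.217 and 0.307, and 0 of them passed. Whether these correlations are lower than those of the other genes was not tested. Cd3d and Cd3g, the neighbours read from starts 1355 bases apart, had r = 0.324 and rho = 0.303 over 16 animals (permutation p = 0.224, adjusted 0.392, for r). UCMS replicates 3 and 8 were lowest in Cd3d but not in Cd3e, where replicate 8 stood above the control median. Control replicate 6 was low in Cd3g, Cd247 and Cd8a and stood near the control median in Cd3d. Cd247 and Il7r had r = 0.307 (permutation p = 0.248), which was -0.0913 without control replicate 6 and UCMS replicate 5. UCMS replicates 2, 3 and 4 had the highest Il7r of all animals.

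**Figure D4:**
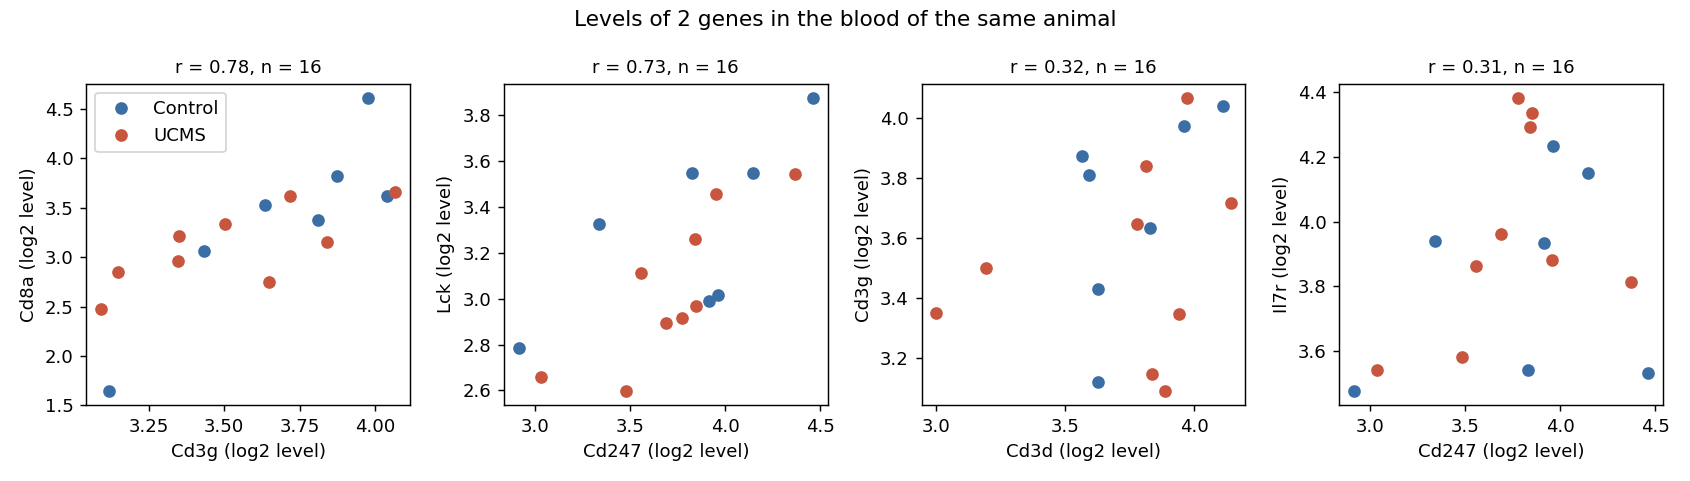
Log2 levels of 2 genes in the blood of the same animal, with 1 point for each of 16 animals, blue for control and red for UCMS. Cd8a rises with Cd3g (r = 0.78) and Lck with Cd247 (r = 0.73), while Cd3g with Cd3d (r = 0.32) and Il7r with Cd247 (r = 0.31) show a wide scatter.

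Removing the group means could change the co-variation little, since for the 8 genes these differed by 0.27 or less in log2 level. The values below are therefore no separate support for it. On deviations from the group means, permuted within groups, 9 of 28 pairs passed, and r for the 15 pairs of the 6 genes lay between 0.426 and 0.767. Within the 7 controls these pairs had an r between 0.30 and 0.899 (median 0.698), and within the 9 UCMS animals between 0.317 and 0.829 (median 0.557), with 0 of 28 pairs past the adjusted threshold by the exact permutation test in either group. At an unadjusted exact p under 0.05 there were 4 of 28 in controls and 5 of 28 in UCMS. Relative to Ptprc in the same library, the 15 pairs had an r between 0.361 and 0.756, and 0 of 28 passed after adjustment (8 at an unadjusted permutation p under 0.05). Subtracting 1 Ptprc value from both genes gives them a shared term, so this r cannot show whether co-variation holds relative to leukocyte content. The median r of the Cd3d pairs went from 0.178 to 0.327 in this way, and that of the Il7r pairs from 0.0109 to 0.143. With 1 animal left out, 7 to 11 pairs passed, 7 of them without control replicate 6, and 10 passed without the 2 BS animals. For the counts in this paragraph, the share over all pairs of genes was not taken, so they cannot be set against other genes.

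The 6 genes were also correlated with other T cell genes, with B cell genes and with general leukocyte genes. On deviations from the group means, the median r with the 49 other T cell genes was 0.483 for Cd3e, 0.383 for Cd3g, 0.573 for Cd247, 0.477 for Cd4, 0.484 for Cd8a and 0.577 for Lck. The median r with the 15 B cell genes was 0.615, 0.550, 0.540, 0.403, 0.598 and 0.637 for the same genes, and each of the 15 was above 0 for each of the 6. With the 8 general leukocyte genes it was 0.412, 0.474, 0.319, 0.411, 0.423 and 0.523 in the same order. With all genes tested the medians of the 6 lay between -0.0279 and 0.0116. Cd3d had 0.133 with the other T cell genes, 0.296 with B cell genes and 0.112 with general leukocyte genes, and Il7r had 0.186, -0.162 and 0.0504. Genes of neutrophils, monocytes, platelets, natural killer and red cells had medians between -0.30 and 0.26 with the 8 genes. These are descriptions over 16 animals whose levels share 1 normalization, and the genes of a list are not independent.

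**Figure D5:**
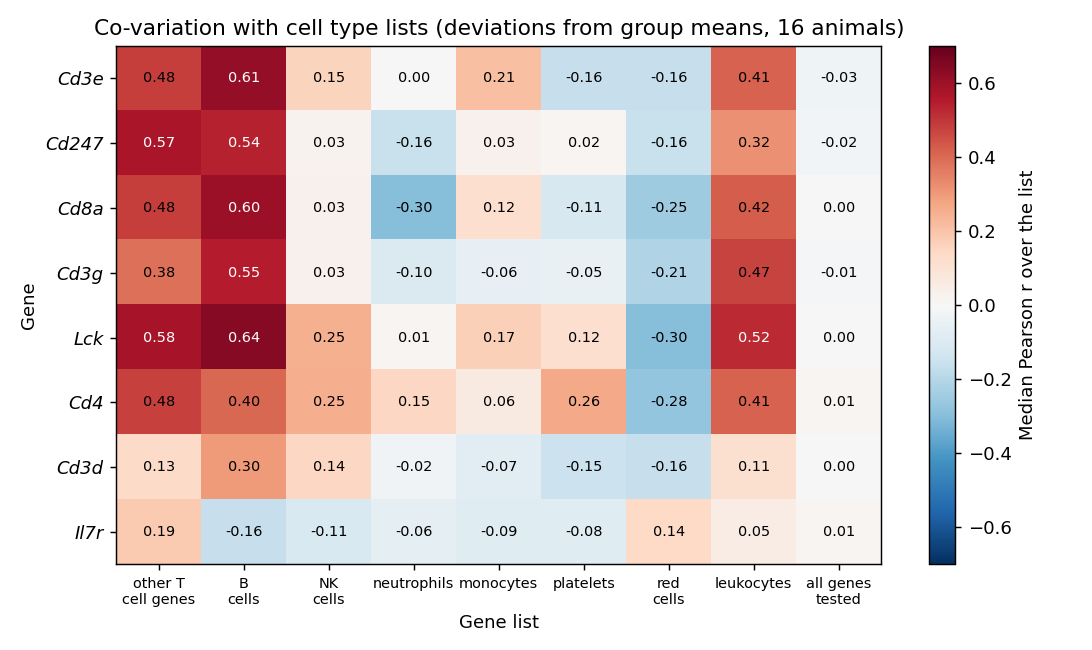
Median Pearson r between each of the 8 T cell genes (rows) and the genes of each cell type list (columns), on deviations from the group means over 16 animals. For Cd3e, Cd247, Cd8a, Cd3g, Lck and Cd4 the medians are highest with other T cell, B cell or general leukocyte genes, and for Cd3d and Il7r no list exceeds 0.30.

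The genes whose pattern over the 16 animals was most like each T cell gene were ranked by r on deviations from the group means, among the 7945 others. Lck had its closest partner in Klf2, the quiescence factor of naive T cells, with r = 0.959, followed by the receptor kinase Grk6 (0.910), the immediate early gene Ier5 (0.898) and the ribosomal gene Rpsa (0.893), which has many pseudogene copies. Cd8a was closest to Satb1 (0.872) and Tatdn2 (0.856), and Cd3e to Hectd3 (0.839) and the phosphatase Ptpn22 (0.835), which restrains Lck. Cd247 was closest to Ankrd44 (0.926), Ier2 (0.864), Adrbk1 (0.853) and Ncstn (0.847), with Ptprcap, a partner protein of CD45, next (0.837). Cd3g was closest to BC002059 (0.813) and Gpr183 (0.809), an oxysterol receptor that guides lymphocytes, and Cd4 to Rsrp1 (0.848) and Map3k5 (0.834). Cd3d was closest to Tmem160 (0.852) and Vhl (0.848), and Il7r to Rab37 (0.842) and Frat1 (0.766). Genes of the T cell list stood among the first 5 only for Lck (Klf2), Cd8a (Satb1) and Cd3e (Ptpn22). These r values were picked as the highest of 7945 over 16 animals, so they are high by selection, and none was tested.

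The 49 other T cell genes made up 0.617% of the genes tested. They held 7 of the 50 closest partners of Cd247, 4 of those of Lck, 2 each for Cd4 and Cd8a, 1 each for Cd3e, Cd3g and Il7r, and 0 for Cd3d. The 15 B cell genes, out of the 7945 genes ranked, held 3 of the 50 closest partners of Cd8a, where the 49 T cell genes held 2. They held 0 of those of the other 7. The best-ranked of the other 7 genes stood at rank 12 for Cd3g (Cd8a), 18 for Cd8a (Cd3g), 46 for Cd4 (Cd3e), 49 for Cd247 (Lck), 88 for Cd3e (Cd247) and 116 for Lck (Cd247). It stood at rank 865 for Cd3d and at 749 for Il7r, with Cd3g in both cases.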

How the data were processed

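RNA of whole blood (16 libraries) and of 3 brain regions (48 libraries) was sequenced; ribosomal RNA was depleted and strand-specific libraries were built from 100 ng of RNA, per the labels' protocols. Build GRCm38.p4 is named in the submitters' processing notes. The sources used here do not give the aligner, counting tool, annotation, strand setting or filters. For each tissue the authors deposited a table of log2 levels, which its name presents as normalized counts. That the base is 2 and that the authors quantile normalized the libraries is inferred from the values: in blood these ran from 0.0350 to 19.8, and the values at a given rank were the same in all libraries, within 0.002, for 72.4% of ranks. Whole reads were not recovered, so no count model was run, no counting interval is given, and precision comes from the spread between animals.

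Limma 3.58.1 in R 4.3.3, with a trended prior variance, was fitted to 7 control and 9 UCMS blood libraries and to the 7947 genes above the lowest 10% by mean level, two-sided, with Benjamini-Hochberg p-values adjusted over all genes at 0.05. All 8 genes passed this filter. Permutation tests used Python 3.11.15 and numpy 2.4.6, with exact enumeration up to 9 animals and otherwise 100000 resamples. Both procedures were tested on simulated data. The differences simulated for limma were larger than those of the 8 genes and lay among independent genes. Recovery of differences as small as theirs was therefore not tested. Alternatives were other filters, prior variances, weights and scalings, and leaving out animals.

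The 8 genes, the lists and the tests were chosen with earlier results of these data known. Named genes were the 8, the 6 other T cell genes with the smallest p, the 5 closest partners of each of the 8, of which a selection is given, and the 2 best expressed genes of each other list. Coordinates come from GENCODE M21 on GRCm38 and promoters from RefSeq on GRCm38.p6. The highest correlation of 2 blood libraries was 0.934, and no library was a copy of another.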

Additional observations from a re-analysis of the deposited data

How the results depend on the processing

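The number of the 8 genes called stayed at 0 under all 25 other fits, and of all genes at 0 to 1 with 1 library left out (1 without UCMS replicate 2). Array weights turned Cd3d, Cd3e, Cd247 and Cd4 to 0.00993, 0.0242, 0.0652 and 0.0973. With 1 library left out, the difference ran from -0.0814 to 0.0611 for Cd3d, from -0.13 to 0.0191 for Cd3e and from -0.21 to 0.0441 for Cd247, and Cd4 minus Cd8a from -0.0526 to 0.34. There, Cd3g ran from -0.27 to -0.12, Cd4 from -0.21 to -0.0141, Cd8a from -0.56 to -0.0625, Lck from -0.34 to -0.16 and Il7r from 0.0731 to 0.20. The cause was not tested. Genes at an unadjusted p under 0.05 fell from 859 to 332 relative to Ptprc. Of the 28 pairs, 0 passed relative to Ptprc, 0 within controls, 0 within UCMS, which hold fewer animals, and 7 to 11 with 1 animal left out. Replicate numbers gave no sign of pairing: same-numbered libraries had correlated deviations of -0.26 to 0.25, and in 1 of 7 pairs this exceeded that with the other numbers. The replicate numbers do not always match the numbers of the animals, so pairing by animal number was not tested. The fit with the replicate block, over 14 libraries, called 0 of the 8 genes and 0 of all, gave 851 genes at an unadjusted p under 0.05, and 0.176 for Cd4 minus Cd8a (exact p = 0.625). Depth is unknown, and intervals as wide as that of Cd8a leave moderate differences undetectable.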

Other observations

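Some of the T cell genes also had rows in the brain tables, which were normalized separately from blood, so levels are not set against blood. Cd247 stood at 4.94 ± 0.29 (SD over 16 libraries of both treatments) in the prefrontal cortex table, 5.05 ± 0.25 in that of the hippocampus and 5.29 ± 0.16 in that of the hypothalamus. Il7r varied more, from 2.11 to 5.24, from 1.13 to 5.10 and from 1.29 to 5.68 in the same order. Cd4 had a row in prefrontal cortex, where it ran from 0.703 to 4.88. Pou2f1 overlaps Cd247 on the opposite strand, and the share of its reads in the Cd247 rows was not tested. Of the 18 groups of values examined for a library far from the others (8 genes and Cd4 minus Cd8a, in controls and in UCMS), 0 held one by Dixon's criterion.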
